A study of Mus musculus with 9 samples.

Results

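The 37 genes described here encode NRF2 (gene Nfe2l2), its inhibitor KEAP1, and the enzymes of the glutathione, thioredoxin and peroxide-removing systems. They were taken by name as the rows of the deposited count table whose gene symbol is on a list of 37 symbols. The rule uses no measured value, but the list was drawn up when earlier results of these data were known. All 37 were found among the 24421 genes listed. All 37 also passed the filter on low counts, which kept 14513 genes. The cystine transporter gene Slc7a11 passed it only through the LAMP2A and LAMP2A+DM-αKG libraries, where it is higher, so its difference from VT is given as a description and the counts against VT are also given for the 36 members without it.

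The series measured RNA of D3 cells, a mouse embryonic stem (ES) cell line, in 9 libraries: 3 of cells stably carrying the pCDH control vector (VT), 3 of cells overexpressing LAMP2A, and 3 of LAMP2A-overexpressing cells given dimethyl α-ketoglutarate (DM-αKG) at 4 mM for 72 hours (LAMP2A+DM-αKG, also given as "after DM-αKG"). LAMP2A is the lysosomal receptor of chaperone-mediated autophagy, and DM-αKG is an ester form of α-ketoglutarate that enters cells. All groups were kept without feeders on gelatin in medium with serum, 2-mercaptoethanol (a thiol reductant) and leukemia inhibitory factor. The labels do not say whether the stable lines were clones or pools, which promoter drove LAMP2A, or whether the 3 libraries of a group were separate cultures. No vector cells given DM-αKG were analysed here.

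NRF2 is a transcription factor that KEAP1 holds in the cytoplasm and marks for degradation. When electrophiles or oxidants modify KEAP1, NRF2 accumulates, pairs with small MAF proteins and binds antioxidant response elements in DNA, and BACH1 and BACH2 compete for the same elements as repressors. Its textbook targets make glutathione (Gclc, Gclm, Slc7a11), supply NADPH (G6pdx, Pgd, Me1), and reduce quinones, thioredoxin and oxidized peroxiredoxins (Nqo1, Txnrd1, Srxn1). Since NRF2 is mainly controlled as a protein, the level of its mRNA is not a measure of its activity.

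With LAMP2A, the genes of NRF2 and KEAP1 did not pass the test against VT (log2 fold changes -0.03 and -0.04), and the enzymes split. Of the 37 genes 11 rose, where 43.0% of all genes did, and 16 fell, where 42.1% did. Nqo1, G6pdx, Gsr, Gss, Sod1, Sod2, Gpx4 and Gsta4 fell between 1.54-fold (Gpx4) and 3.78-fold (Sod2). Gpx8, Prdx4, Txnrd2 and Me1 rose by 1.5-fold or more, as did Slc7a11, which had few reads. With DM-αKG in LAMP2A cells, 27 of the 37 genes rose and 8 fell, where 41.1% of all genes rose and 42.1% fell. Against VT 21 were higher and 9 lower, where 29.3% of all genes were in each direction. Among the higher were Nfe2l2, Keap1, Gclc, Gclm, Gsr, Nqo1, Me1 and Gpx4, and among the lower Sod1, Sod2, Gpx1 and Prdx1.

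The libraries held 23636074 to 32809875 counted reads. Lamp2 itself was at 56.9 to 60.01 CPM (counts scaled to library size with TMM factors) in VT, against 403 to 407 in LAMP2A and 95.3 to 99.3 after DM-αKG, so the DM-αKG libraries carried 4.16-fold less Lamp2 RNA than the LAMP2A ones, and a count over the whole gene mixes the LAMP2A isoform, the introduced copy and the other Lamp2 RNA. Markers of cell types moved with the groups. The 10 ES cell markers summed to 7834 to 8301 CPM in VT, against 1883 to 1889 in LAMP2A and 6766 to 6818 after DM-αKG, and all 10 fell with LAMP2A and rose with DM-αKG. Summed levels in the same order of groups were 24.3 to 29.0, 189 to 196 and 28.1 to 30.2 CPM for 10 fibroblast and feeder markers, 466 to 505, 1903 to 1926 and 675 to 717 CPM for 10 markers of extraembryonic endoderm, and 66.5 to 72.0, 1213 to 1226.5 and 85.8 to 90.4 CPM for 8 of trophectoderm. With LAMP2A 7 of 8 tested fibroblast markers, 10 of 10 endoderm markers and 7 of 7 tested trophectoderm markers were higher, and with DM-αKG all 8, 10 and 7 fell. Lum, Afp and Elf5 had no count in VT, and Elf5 none in LAMP2A+DM-αKG. These are bulk samples, in which fewer cells of a type and less RNA per cell cannot be told apart. The part of these shifts in the results below was not tested.

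**Figure D1:**
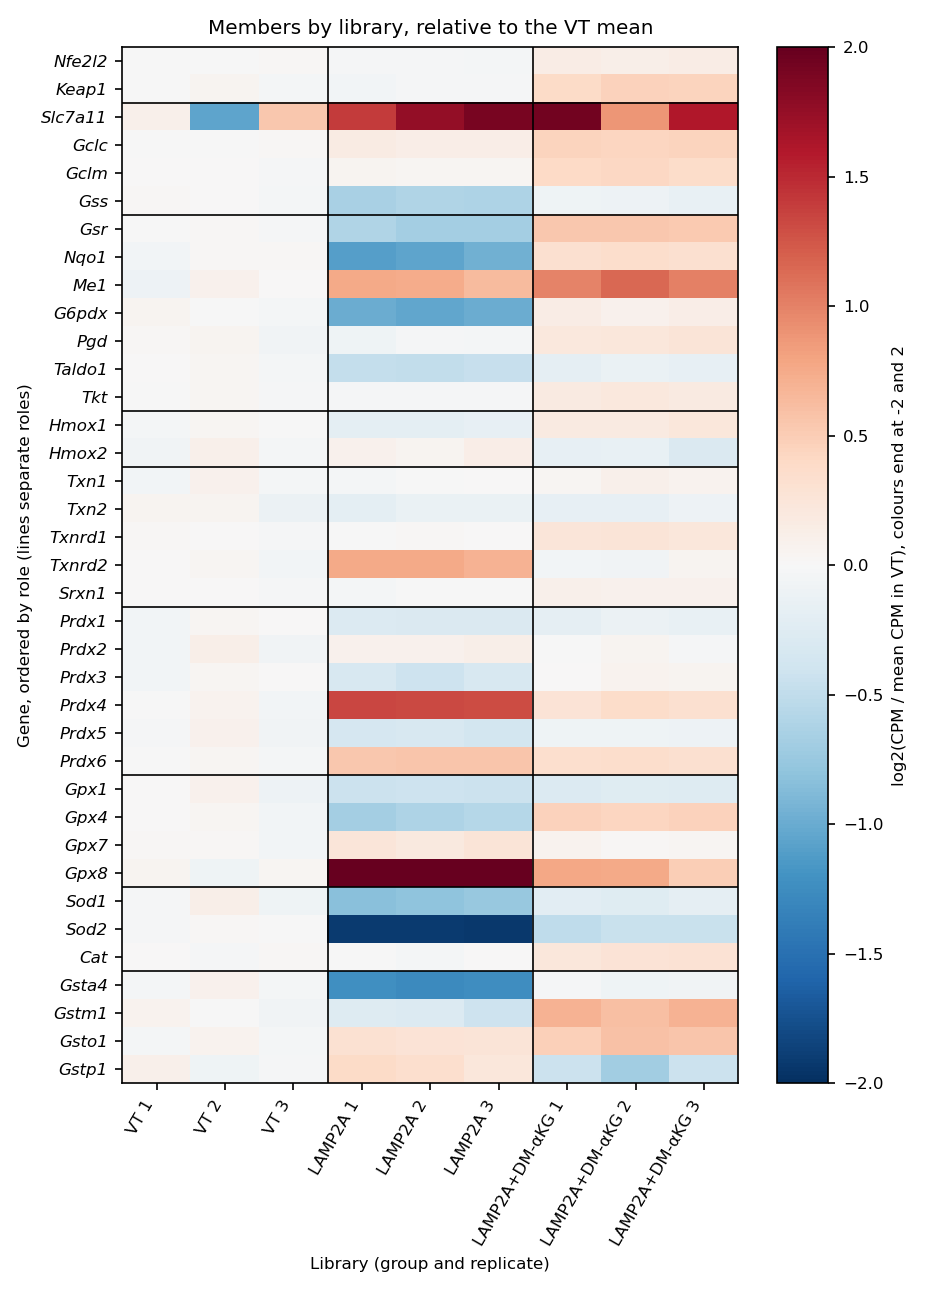
Each of the 37 genes (rows, grouped by role from regulators at the top to glutathione transferases at the bottom) in each of the 9 libraries (columns), coloured by log2 of its CPM over the VT mean, with colours ending at -2 and 2. The 3 libraries of a group have nearly the same colours for all genes but Slc7a11, which had 3 to 25 reads per library, and Gpx8 in LAMP2A lies beyond the end of the scale.

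To compare genes with each other, CPM were divided by the length of the exons of each gene. In VT the genes with the highest levels per kb of exon were Txn1, thioredoxin (359.6 CPM per kb), Prdx1, the main cytosolic peroxiredoxin (329), Gpx1, a glutathione peroxidase of cytosol and mitochondria (287), and Gsta4, a glutathione transferase that conjugates lipid aldehydes (270.3). Sod1 (127) and Gpx4 (114) followed. The lowest were Gpx8 (2.43), Txnrd2 (1.34) and Slc7a11 (0.0166). Txn1 and Prdx1 held the highest places in all 3 groups. In LAMP2A the level of Gsta4 per kb came down to 113, and Prdx6 (77.3) moved above Gpx4 (73.9) and Sod1 (73.1). In LAMP2A+DM-αKG Gpx4 (155) stood above Sod1 (110.0).

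In the comparison of LAMP2A with VT, 27 of 37 members passed the threshold (adjusted p under 0.05 in edgeR's quasi-likelihood test over all genes), against 85.1% of all genes tested. Of these 11 rose (43.0% of all genes rose) and 16 fell (42.1% of all genes). At 1.5-fold or more, 5 rose (27.6% of all genes) and 8 fell (19.2%). Among the 10706 genes whose mean level reached 5 CPM, which leave out Slc7a11 alone of the members, 10 of 36 rose (40.0% of those genes), 4 of them by 1.5-fold or more (20.7%). Gpx8, among the 4, reached that mean only through the LAMP2A libraries (2.55 CPM in VT, 24.5 in LAMP2A and 4.08 after DM-αKG). Its place in these counts is therefore a description. In that set 16 of 36 members fell (47.5% of those genes), 8 of them by 1.5-fold or more (17.7%). The median size of change of the 37 genes was 1.25-fold, against 1.46-fold over all genes tested. Their median log2 fold change was -0.03, against 0.01 over all genes. In 7 of the 10 that did not pass (Nfe2l2, Keap1, Pgd, Tkt, Txn1, Srxn1 and Cat) the small negative log2 fold change turned positive when scaling factors were taken from genes whose mean level reached 5 CPM, a setting that moved the members by 0.06. The other 3 were Gclm, Hmox2 and Txnrd1.

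In the comparison of LAMP2A+DM-αKG with LAMP2A, 35 of 37 members passed, against 83.2% of all genes. The directions were uneven: 27 rose, against 41.1% of all genes, and 8 fell, against 42.1%. At 1.5-fold or more the counts were 8 higher (16.4% of all genes) and 4 lower (25.4%). The median log2 fold change of the members was 0.26, against -0.00 over all genes tested. Among the genes whose mean level reached 5 CPM, 27 of 36 members and 46.6% of all rose, and 8 members and 39.5% of all fell. Gpx8, among the 8, is in that set only through the LAMP2A libraries. Both this comparison and the first use the LAMP2A libraries, so their values for a gene are not independent.

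LAMP2A+DM-αKG was also set against VT, which leaves the LAMP2A libraries out of the contrast. There 30 of 37 members passed, against 58.7% of all genes, with 21 higher and 9 lower (29.3% of all genes in each direction). At 1.5-fold or more, 4 were higher (8.58% of all genes) and 0 lower (6.30%). Of the 4, 1 is Slc7a11, and the others are Me1, Gpx8 and Gstm1. Among the genes whose mean level reached 5 CPM, 20 of 36 members were higher (31.9% of those genes), 3 of them by 1.5-fold or more (5.21%). Gpx8, among the 3, is in that set only through the LAMP2A libraries, with 4.08 CPM after DM-αKG and 2.55 in VT. In that set 9 of 36 members were lower (33.6% of those genes). The median log2 fold change was 0.14, against 0.00 over all genes tested, and 25 of 37 values were above 0. In 19 of the 37 genes the highest of the 3 group means was that of LAMP2A+DM-αKG (51.4%), against 22.7% of all genes tested, and in 23 the lowest was that of LAMP2A (62.2%), against 43.8% of all genes.

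**Figure D2:**
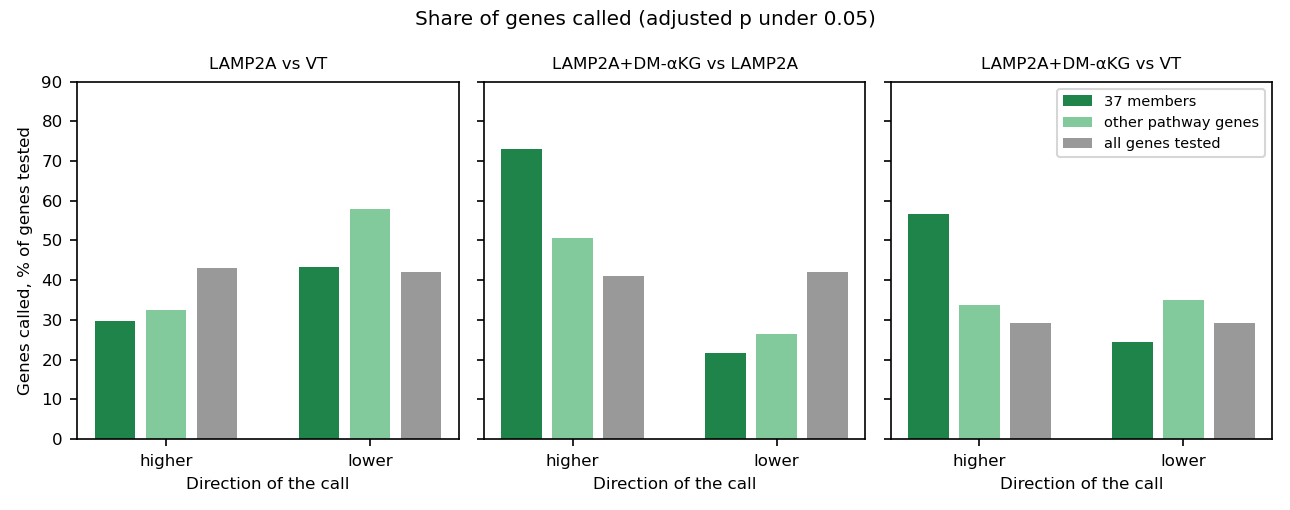
Bars give the percentage of genes called higher or lower (adjusted p under 0.05) among the 37 members, 83 other genes of the pathway and all 14513 genes tested, in each comparison. The member bar for higher calls stands above that of all genes in both panels with DM-αKG (73.0% against 41.1%, and 56.8% against 29.3%) and below it for LAMP2A against VT (29.7% against 43.0%).

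Nfe2l2 and Keap1, the regulators, did not pass with LAMP2A and rose with DM-αKG. Nfe2l2 (mm10, chromosome 2, 75675513–75704641, GENCODE M21 annotation, as for all positions of genes here) had 162, 162 and 167 CPM in the VT libraries, against 162, 160.2 and 159.8 with LAMP2A and 181, 178 and 181 after DM-αKG. The DM-αKG libraries stood above both other groups, and the LAMP2A libraries lay just under those of VT. Nfe2l2 rose 1.12-fold with DM-αKG (log2 fold change 0.16, SE 0.0293, edgeR adjusted p = 5.0e-06) and was 1.100-fold above VT (log2 fold change 0.14, SE 0.0295, edgeR adjusted p = 1.7e-04), with a difference of -0.03 on the log2 scale between LAMP2A and VT (edgeR adjusted p = 0.389). Keap1 (chromosome 9, 21229730–21239361) had 55.9, 58.3 and 54.4 CPM in the VT libraries, against 53.9, 55.03 and 55.5 with LAMP2A and 73.6, 77.6 and 76.2 after DM-αKG. How strand was used in counting is not given in the sources used here, and other-strand genes share exon bases with Keap1 (10.9% of its exon bases), G6pdx (13.6%), Prdx5 (19.1%) and Gss (6.68%, with Acss2). The VT and LAMP2A libraries of Keap1 overlapped and all 3 DM-αKG libraries were higher. The rise with DM-αKG was 1.38-fold (log2 fold change 0.47, SE 0.03698, edgeR adjusted p = 9.5e-14), and the ratio of Nfe2l2 to Keap1 per kb of exon was 3.60 ± 0.179 in VT, against 3.62 ± 0.0769 in LAMP2A and 2.94 ± 0.0991 after DM-αKG (SD, n = 3).

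The core of the antioxidant response element, TGACNNNGC, was searched on both strands in RefSeq promoter windows (GRCm38.p6) running from 250 bases before to 50 bases after a transcription start. Windows were found for 32 of the 37 members, 42 windows in all; Gclc, Gsr, Hmox1, Prdx6 and Gsta4 had none. The core was present in 9 of the 32 genes (28.1%), against 16.9% of the 10909 genes tested that had a window; in windows this was 21.4% against 14.2%, and 12.4% of all 32851 windows of that length held it. A match is a run of letters and not a shown binding site, and elements further upstream lie outside these windows. A gene counts as holding the core if any of its windows does, and 6 members had more than 1 window. In Txnrd1 and Pgd the core lies in the window of a start inside the gene, and their other windows hold none. Me1 also has a window without the core. The G6pdx stretch printed below lies inside the annotated span of the gene too. The stretches around 6 of the cores, those whose flanks also lie before the start, are printed because they show which members carry the letters there and how the variable bases differ. Each runs 5′ to 3′ along the strand of its gene, with the core in capitals; capitals that end in TCA are cores on the opposite strand.
G6pdx (chrX:74428904-74428962, - strand, core 57 bases before the start): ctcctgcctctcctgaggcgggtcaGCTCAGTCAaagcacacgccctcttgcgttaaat
Gclm (chr3:122245398-122245456, + strand, core 134 bases before the start): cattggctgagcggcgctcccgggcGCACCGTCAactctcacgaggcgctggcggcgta
Nfe2l2 (chr2:75704870-75704913, - strand, core 240 bases before the start): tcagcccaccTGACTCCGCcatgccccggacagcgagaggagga
Prdx1 (chr4:116685441-116685499, + strand, core 133 bases before the start): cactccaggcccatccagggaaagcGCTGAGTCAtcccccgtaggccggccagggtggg
Sod1 (chr16:90220681-90220739, + strand, core 56 bases before the start): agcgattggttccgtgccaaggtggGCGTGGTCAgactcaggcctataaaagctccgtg
Txnrd1 (chr10:82859089-82859147, + strand, core 92 bases before the start): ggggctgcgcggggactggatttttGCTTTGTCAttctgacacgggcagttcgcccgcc
The cores of Me1 (TGACTCAGC), Pgd (TGACATTGC) and Srxn1 (TGACCTAGC) lie across or close behind the start of the window that holds them. For Pgd that is the start inside the gene, so its place among the 9 rests on that window alone. In Me1 and Prdx1 the core is TGACTCAGC, which also contains the AP-1 motif TGACTCA, and the other 7 do not overlap it. The genes with a core differed in what they did: with LAMP2A Me1 rose, G6pdx, Prdx1 and Sod1 fell, and Nfe2l2, Gclm, Pgd, Srxn1 and Txnrd1 did not pass. With DM-αKG all 9 rose against LAMP2A, as did 41.1% of all genes. Nqo1, whose single window holds no core, rose more than any of the 9.

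Genes that make glutathione were split with LAMP2A and rose with DM-αKG apart from the transporter. Gclc and Gclm encode the catalytic and the modifier subunit of glutamate-cysteine ligase, the enzyme that sets the pace of glutathione synthesis. Gclc (chromosome 9, 77754535–77794485) had 81.4, 80.9 and 82.7 CPM in the VT libraries, against 91.2, 89.3 and 89.6 with LAMP2A and 111, 109.6 and 111 after DM-αKG. The 3 groups did not overlap, and Gclc rose slightly with LAMP2A (log2 fold change 0.14, SE 0.0329, edgeR adjusted p = 2.0e-04) and again with DM-αKG (1.23-fold; log2 fold change 0.30, SE 0.03196, edgeR adjusted p = 2.2e-10), ending 1.35-fold above VT. Gclm (chromosome 3, 122245557–122270732) had 66.6, 66.6 and 64.7 CPM in the VT libraries, against 68.6, 67.5 and 68.1 with LAMP2A and 87.2, 88.2 and 85.4 after DM-αKG. VT and LAMP2A did not differ by the test (log2 fold change 0.05, edgeR adjusted p = 0.2202), and the DM-αKG libraries were 1.28-fold above LAMP2A (log2 fold change 0.35, SE 0.0339, edgeR adjusted p = 1.6e-11). The ratio of Gclc to Gclm per kb of exon was 2.07 ± 0.0568, 2.21 ± 0.0124 and 2.13 ± 0.0480 in VT, LAMP2A and LAMP2A+DM-αKG, so the subunit genes moved with DM-αKG by like amounts.

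Gss, glutathione synthetase, which completes glutathione, fell 1.54-fold with LAMP2A (from 65.7 ± 1.31 to 42.7 ± 0.802 CPM; SD, n = 3) and returned to 60.7 ± 1.45 CPM with DM-αKG, 1.08-fold under VT (edgeR adjusted p = 0.00805; 0.0677 without LAMP2A+DM-αKG replicate 3). Slc7a11 (chromosome 3, 49892526–50443614), the subunit of the cystine-glutamate exchanger that carries the substrate, was close to the limit of counting. It had 6, 3 and 9 reads in VT, against 20, 25 and 23 in LAMP2A and 21, 11 and 21 after DM-αKG, or 0.247, 0.111 and 0.335 CPM in the VT libraries, against 0.608, 0.776 and 0.859 with LAMP2A and 0.883, 0.424 and 0.698 after DM-αKG. All libraries of both groups with LAMP2A lay above those of VT, with fitted folds of 3.18 (log2 fold change 1.67, SE 0.364) and 2.85 (log2 fold change 1.51, SE 0.384). The 2 groups overlapped each other (log2 fold change -0.16, SE 0.279, edgeR adjusted p = 0.607).

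Of the 7 genes for NADPH supply and for the reduction of quinones and glutathione, 4 fell and 1 rose with LAMP2A (42.1% and 43.0% of all genes), and all 7 rose with DM-αKG (41.1% of all genes). Nqo1 (chromosome 8, 107388225–107403206), a quinone reductase and a common readout of NRF2, had 76.9, 81.3 and 80.8 CPM in the VT libraries, against 37.1, 38.2 and 40.8 with LAMP2A and 99.7, 102 and 99.4 after DM-αKG. The LAMP2A libraries were the lowest and the DM-αKG libraries were the highest of the 9. Nqo1 fell 2.06-fold with LAMP2A (log2 fold change -1.05, SE 0.0396, edgeR adjusted p = 5.7e-23), rose 2.600-fold with DM-αKG (log2 fold change 1.38, SE 0.0387, edgeR adjusted p = 7.3e-27) and ended 1.26-fold above VT (log2 fold change 0.33, SE 0.0361, edgeR adjusted p = 1.1e-09).

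G6pdx (chromosome X, 74409483–74429194), glucose-6-phosphate dehydrogenase, the entry enzyme of the pentose phosphate pathway, had 91.4, 87.4 and 85.5 CPM in the VT libraries, against 44.2, 42.6 and 44.3 with LAMP2A and 97.3, 93.8 and 96.3 after DM-αKG. It fell 2.02-fold (log2 fold change -1.01, SE 0.0375, edgeR adjusted p = 2.9e-23), rose 2.19-fold (log2 fold change 1.13, SE 0.0371, edgeR adjusted p = 8.1e-25) and stood 1.09-fold above VT (log2 fold change 0.12, SE 0.0348, edgeR adjusted p = 0.00312), with no overlap between groups. Of the next enzymes of that pathway, Pgd and Tkt did not pass with LAMP2A (log2 fold changes -0.05 and -0.02), Taldo1 fell 1.39-fold, and all 3 rose with DM-αKG (log2 fold changes 0.28, 0.22 and 0.32). Pgd was called lower with LAMP2A without VT replicate 3 (edgeR adjusted p = 0.00646). The gene of the entry step thus had the largest fold changes of these 4 in both comparisons.

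Gsr (chromosome 8, 33652523–33698163), glutathione reductase, which returns oxidized glutathione to its reduced form, had 153, 156 and 150.1 CPM in the VT libraries, against 101, 95.2 and 95.2 with LAMP2A and 221, 222 and 219.9 after DM-αKG. It fell 1.58-fold (log2 fold change -0.66, SE 0.0319, edgeR adjusted p = 9.5e-20), rose 2.28-fold (log2 fold change 1.19, SE 0.0314, edgeR adjusted p = 1.2e-27) and was 1.44-fold above VT (log2 fold change 0.53, SE 0.0306, edgeR adjusted p = 1.5e-16). Me1 (chromosome 9, 86581371–86695953), cytosolic malic enzyme, a further source of NADPH, went the other way at first. It had 19.8, 22.6 and 21.5 CPM in the VT libraries, against 35.9, 35.5 and 33.1 with LAMP2A and 42.4, 47.1 and 42.9 after DM-αKG, 3 separate levels that rise from VT. Me1 rose 1.64-fold with LAMP2A (log2 fold change 0.71, SE 0.0545, edgeR adjusted p = 3.5e-14) and 1.26-fold more with DM-αKG (log2 fold change 0.34, SE 0.0484, edgeR adjusted p = 9.4e-08), and its 2.07-fold difference between LAMP2A+DM-αKG and VT (log2 fold change 1.05, SE 0.0537, edgeR adjusted p = 4.9e-18) was the highest of the members above 5 CPM. Summed over the 7 genes, CPM were 1251 ± 30.4 in VT, against 1045 ± 3.95 in LAMP2A and 1453 ± 12.1 after DM-αKG (SD, n = 3).

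**Figure D3:**
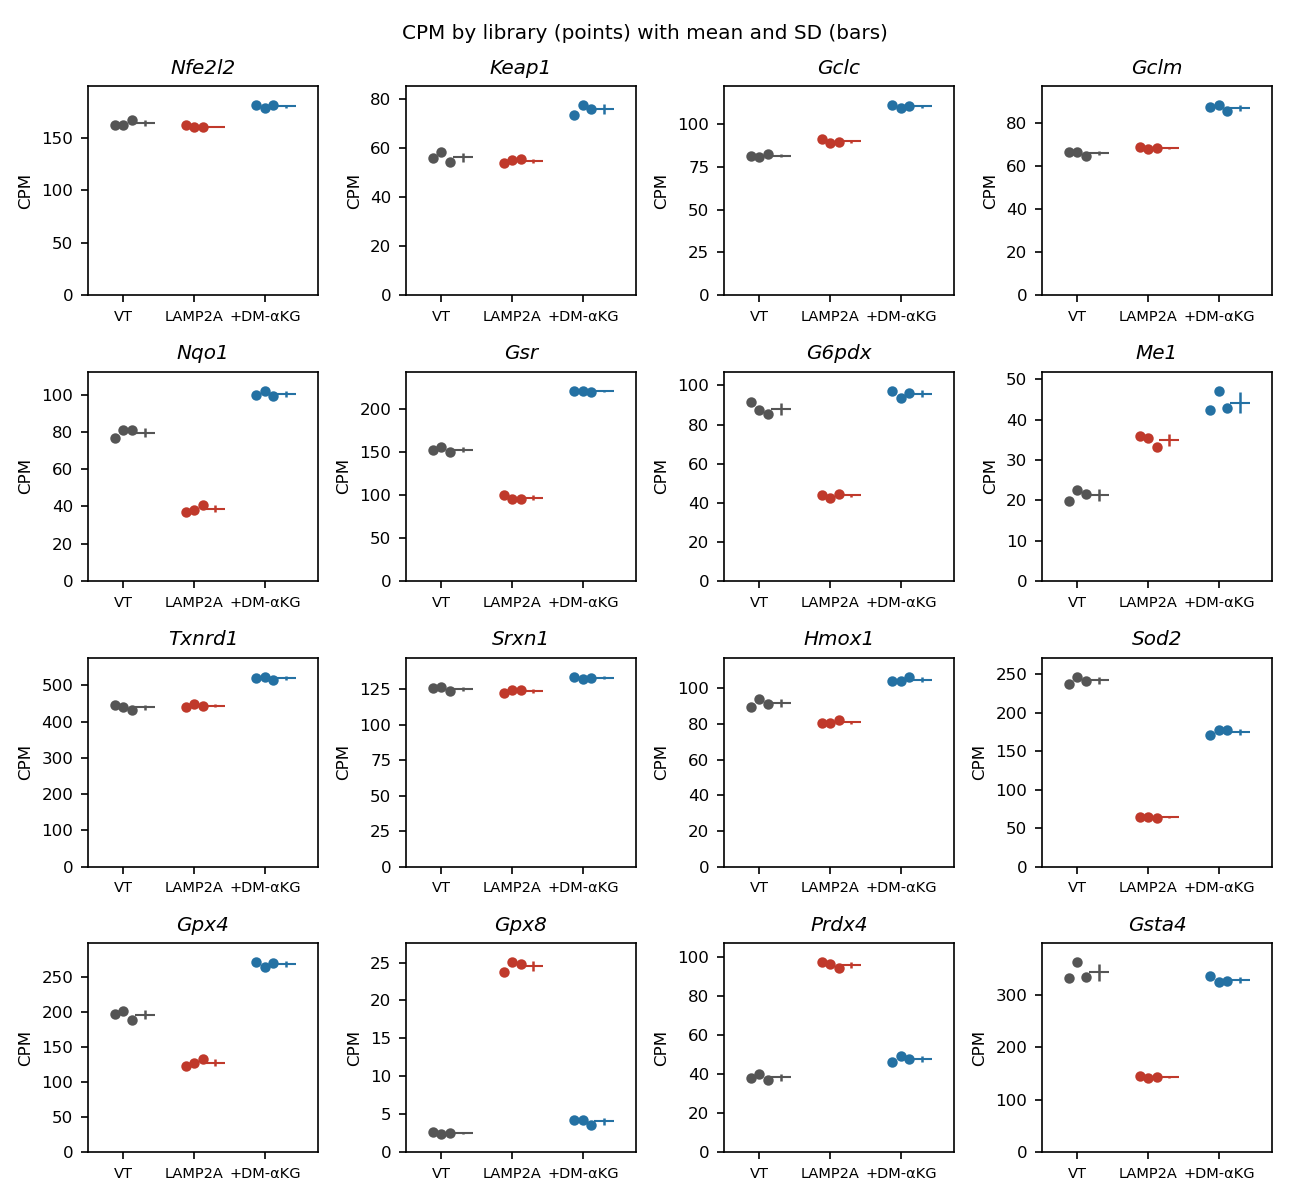
CPM of 16 members in each library (points) with the mean and SD of each group of 3 (crosses), on linear axes that start at 0. Nqo1, Gsr, G6pdx, Sod2, Gpx4 and Gsta4 were lowest in LAMP2A, Gpx8 and Prdx4 were highest there, and Nfe2l2, Keap1, Gclm, Txnrd1 and Srxn1 differ mainly by higher points in LAMP2A+DM-αKG.

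Heme oxygenases break down heme to biliverdin, carbon monoxide and iron; Hmox1 is the form that NRF2 and BACH1 regulate, and Hmox2 the constitutive form. Hmox1 (chromosome 8, 75093621–75100589) had 89.4, 93.7 and 91.4 CPM in the VT libraries, against 80.3, 80.3 and 81.98 with LAMP2A and 104, 104 and 107 after DM-αKG. The 3 groups did not overlap: Hmox1 fell 1.13-fold with LAMP2A (log2 fold change -0.18, SE 0.0336, edgeR adjusted p = 1.1e-05) and rose 1.297-fold with DM-αKG (log2 fold change 0.37, SE 0.0332, edgeR adjusted p = 1.8e-12). Hmox2 did not pass with LAMP2A (log2 fold change 0.09, edgeR adjusted p = 0.0781) and fell 1.23-fold with DM-αKG; 40.2% of its exon bases are shared with Cdip1 on the other strand. Without VT replicate 2, Hmox2 was called higher with LAMP2A (edgeR adjusted p = 0.00634), as it was with median-ratio size factors (0.0479) and with the filter at 5 CPM (0.006202).

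Of the 5 thioredoxin system genes, 1 rose and 1 fell with LAMP2A (43.0% and 42.1% of all genes). Txnrd1 (chromosome 10, 82833951–82897712), the cytosolic selenoenzyme that reduces thioredoxin with NADPH, had 445, 442 and 432 CPM in the VT libraries, against 439, 448 and 443 with LAMP2A and 522, 525 and 516 after DM-αKG. VT and LAMP2A overlapped (log2 fold change 0.01, edgeR adjusted p = 0.699), and the DM-αKG libraries were 1.17-fold above LAMP2A (log2 fold change 0.23, SE 0.02805, edgeR adjusted p = 3.1e-09) and 1.18-fold above VT. Srxn1 (chromosome 2, 152105516–152111376), sulfiredoxin, which repairs overoxidized peroxiredoxins, had 126, 126 and 123 CPM in the VT libraries, against 122, 125 and 124 with LAMP2A and 134, 132 and 133 after DM-αKG. It did not pass with LAMP2A (edgeR adjusted p = 0.602) and rose 1.08-fold with DM-αKG (log2 fold change 0.11, SE 0.0304, edgeR adjusted p = 0.00186), a call that is lost with a filter at a mean of 5 CPM (edgeR adjusted p = 0.07200).

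Txn1 itself changed by at most 1.06-fold in any comparison. Its call with DM-αKG against LAMP2A (edgeR adjusted p = 0.0189) is lost without LAMP2A replicate 1 (edgeR adjusted p = 0.0764), LAMP2A replicate 2 (0.0513) or LAMP2A+DM-αKG replicate 2 (0.0752). It is also lost in DESeq2 (adjusted p = 0.0528) and with the filter at 5 CPM (edgeR adjusted p = 0.341). The mitochondrial pair differed: Txn2 fell 1.11-fold with LAMP2A, whereas Txnrd2 rose 1.67-fold, from 5.92 ± 0.173 to 9.88 ± 0.215 CPM, and came back to 5.83 ± 0.2497 CPM with DM-αKG (SD, n = 3). Txnrd1 exceeded Txnrd2 per kb of exon by 46.2 ± 0.855 times in VT, against 27.9 ± 0.610 times in LAMP2A and 55.5 ± 2.79 times after DM-αKG.

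Peroxiredoxins remove peroxides with a reactive cysteine. Summed over the 6 genes, their CPM were 1582 ± 55.7 in VT, against 1566 ± 2.702 in LAMP2A and 1560 ± 23.2 after DM-αKG (SD, n = 3), so the sum differed by less than the spread in VT while its makeup shifted. With LAMP2A Prdx2, Prdx4 and Prdx6 rose and Prdx1, Prdx3 and Prdx5 fell; with DM-αKG each of the 6 moved back. Prdx4 (chromosome X, 155323918–155340754), the secreted and endoplasmic reticulum form, had 38.01, 40.1 and 36.96 CPM in the VT libraries, against 97.3, 96.3 and 94.4 with LAMP2A and 46.4, 49.3 and 47.7 after DM-αKG. It rose 2.502-fold (log2 fold change 1.32, SE 0.0386, edgeR adjusted p = 2.1e-26), fell 2.01-fold with DM-αKG (log2 fold change -1.01, SE 0.0373, edgeR adjusted p = 3.6e-23) and stayed 1.25-fold above VT (log2 fold change 0.32, SE 0.0424, edgeR adjusted p = 8.2e-08). Prdx6, which acts on phospholipid peroxides with glutathione, went from 254 ± 6.61 to 371 ± 2.91 and 321 ± 3.12 CPM.

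Prdx1 fell 1.22-fold and the mitochondrial Prdx3 1.27-fold with LAMP2A, and Prdx5 1.27-fold. Per kb of exon, Prdx1 made up 62.5% of the family in VT, against 53.2% in LAMP2A and 57.9% after DM-αKG, and Prdx4 3.47%, 8.97% and 4.43%. The changes of Prdx2 were small (log2 fold changes 0.10 and -0.09), and their calls rest on single libraries. The first (edgeR adjusted p = 0.01701) is lost without VT replicate 1 (0.126), VT replicate 3 (0.139) or LAMP2A replicate 3 (0.0672). The second (edgeR adjusted p = 0.0304) is lost without replicate 1 or 3 of LAMP2A (0.05196 and 0.108) or of LAMP2A+DM-αKG (0.101 and 0.1499).

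**Figure D4:**
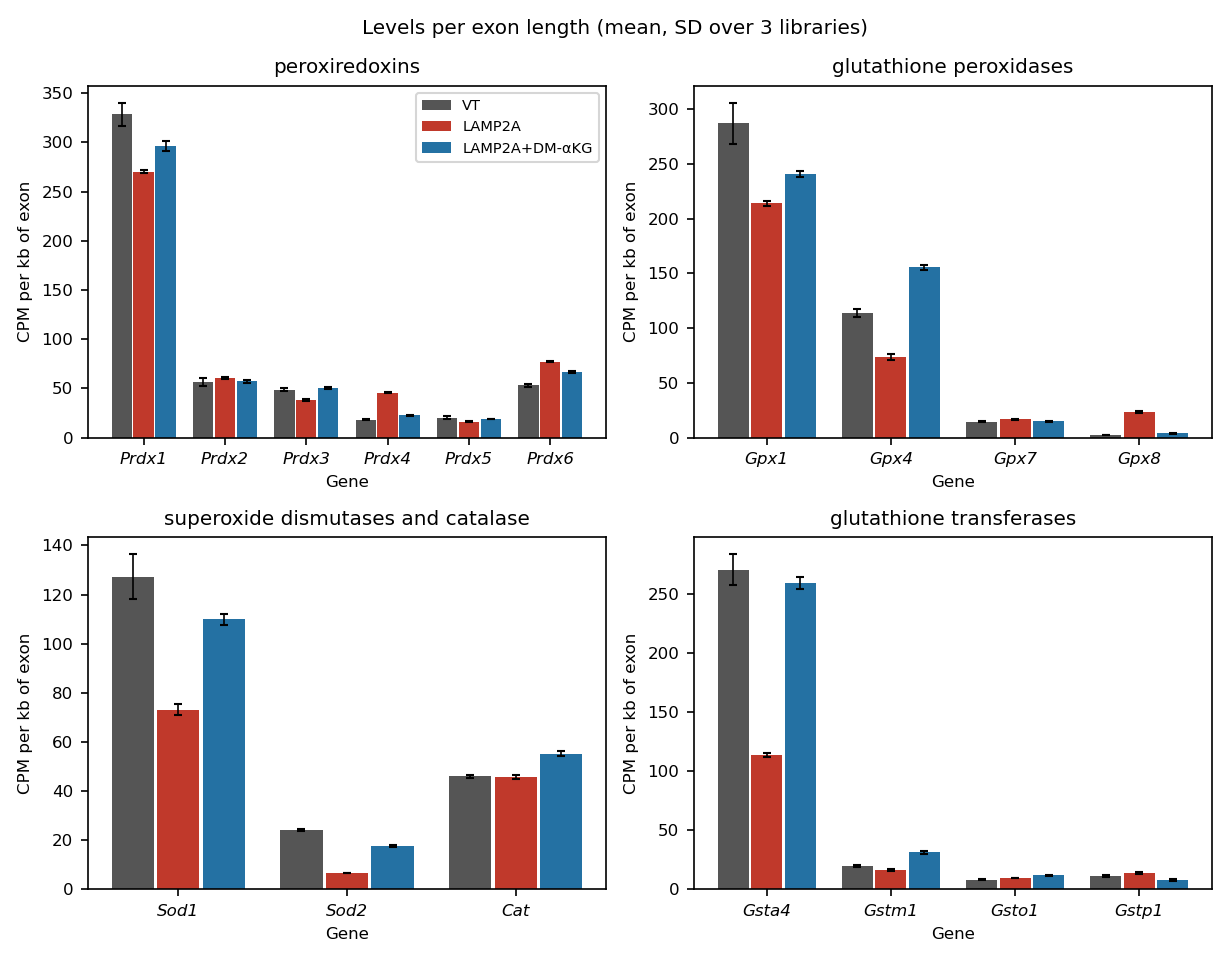
Bars give the mean level per kb of exon in VT, LAMP2A and LAMP2A+DM-αKG, with the SD over 3 libraries, for the members of 4 enzyme families. The dominant gene of each family (Prdx1, Gpx1, Sod1 and Gsta4) was lowest in LAMP2A, while the low bars of Prdx4 and Gpx8 were highest there.

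The glutathione peroxidases split with LAMP2A into 2 lower and 2 higher genes (42.1% and 43.0% of all genes). Gpx1 and Gpx4 are selenoenzymes; Gpx4 reduces lipid peroxides in membranes and is the enzyme that holds off ferroptosis. Gpx4 fell 1.54-fold with LAMP2A, from 196 ± 6.39 to 127 ± 4.94 CPM, rose 2.11-fold with DM-αKG to 268 ± 3.77 CPM and stood 1.37-fold above VT (SD, n = 3; log2 fold changes -0.62, 1.07 and 0.45). Gpx1 fell 1.34-fold and rose only 1.12-fold, so it remained 1.19-fold below VT. The ratio of Gpx4 to Gpx1 per kb of exon went from 0.396 ± 0.0134 in VT to 0.346 ± 0.0144 with LAMP2A and 0.647 ± 0.0159 after DM-αKG.

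Gpx7 and Gpx8 lie in the endoplasmic reticulum and carry cysteine in place of selenocysteine. Gpx8 (chromosome 13, 113042753–113046410) had 2.63, 2.403 and 2.603 CPM in the VT libraries, against 23.7, 25.03 and 24.8 with LAMP2A and 4.33, 4.31 and 3.59 after DM-αKG. All LAMP2A libraries were far above the others, and the DM-αKG libraries were above VT by a small amount. The rise of 9.62-fold (log2 fold change 3.27, SE 0.0826, edgeR adjusted p = 2.7e-28) was the highest of the 37 genes, the fall with DM-αKG was 6.04-fold (log2 fold change -2.60, SE 0.0741, edgeR adjusted p = 1.2e-26), and the remaining difference from VT 1.59-fold (log2 fold change 0.67, SE 0.125, edgeR adjusted p = 2.3e-05). Gpx7 changed in the same directions by less (1.17-fold higher, then 1.14-fold lower). Gpx8 made up 0.582% of the 4 genes per kb of exon in VT, against 7.13% in LAMP2A and 0.939% after DM-αKG.

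Superoxide dismutases turn superoxide into hydrogen peroxide, which catalase breaks down. Sod2 (chromosome 17, 13006846–13040063), the manganese enzyme of mitochondria, had 238, 247 and 242 CPM in the VT libraries, against 64.5, 63.98 and 63.9 with LAMP2A and 171, 177 and 178 after DM-αKG. Its fall of 3.78-fold with LAMP2A (log2 fold change -1.92, SE 0.0321, edgeR adjusted p = 9.6e-34) was the deepest of the 37 genes, and the rise of 2.73-fold with DM-αKG (log2 fold change 1.45, SE 0.0325, edgeR adjusted p = 7.6e-30) left it 1.38-fold under VT (log2 fold change -0.47, SE 0.0297, edgeR adjusted p = 1.9e-15). Sod1, the copper-zinc enzyme of the cytosol, fell 1.74-fold, from 505 ± 36.5 to 290.3 ± 8.57 CPM, and reached 437 ± 8.99 CPM with DM-αKG. Cat did not pass with LAMP2A (edgeR adjusted p = 0.724) and rose 1.21-fold with DM-αKG. The ratio of Sod1 to Sod2 per kb of exon was 5.25 ± 0.308 in VT, against 11.4 ± 0.392 in LAMP2A and 6.29 ± 0.171 after DM-αKG.

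Glutathione transferases join glutathione to electrophiles. Gsta4 (chromosome 9, 78182774–78209349) had 332, 361 and 334 CPM in the VT libraries, against 146, 141 and 144 with LAMP2A and 335, 323 and 325 after DM-αKG. VT and LAMP2A+DM-αKG overlapped and LAMP2A stood far below both. It fell 2.38-fold (log2 fold change -1.25, SE 0.0326, edgeR adjusted p = 6.3e-28) and rose 2.28-fold (log2 fold change 1.19, SE 0.0326, edgeR adjusted p = 3.4e-27); the log2 difference of -0.06 from VT did not pass (edgeR adjusted p = 0.0889), but did without VT replicate 1 (0.0267) or VT replicate 3 (0.03003).

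Gstm1 (chromosome 3, 108012255–108017973) had 30.7, 28.9 and 27.6 CPM in the VT libraries, against 24.3, 23.9 and 21.7 with LAMP2A and 47.1, 44.1 and 46.9 after DM-αKG. It fell 1.24-fold with LAMP2A (log2 fold change -0.31, SE 0.0532, edgeR adjusted p = 2.1e-06), rose 1.97-fold with DM-αKG (log2 fold change 0.98, SE 0.0495, edgeR adjusted p = 3.6e-19) and ended 1.58-fold above VT (log2 fold change 0.66, SE 0.0491, edgeR adjusted p = 1.0e-13). Gsto1 (chromosome 19, 47854970–47864790), an omega class enzyme that also reduces dehydroascorbate, had 15.7, 16.9 and 15.7 CPM in the VT libraries, against 19.8, 19.3 and 19.3 with LAMP2A and 22.4, 24.1 and 23.5 after DM-αKG. Like Gclc and Me1 it rose in both steps, by 1.21-fold (log2 fold change 0.28, SE 0.0566, edgeR adjusted p = 3.3e-05) and 1.198-fold (log2 fold change 0.26, SE 0.0526, edgeR adjusted p = 3.2e-05), to 1.45-fold above VT (log2 fold change 0.54, SE 0.0561, edgeR adjusted p = 4.2e-10). Gstp1 was the single member that rose with LAMP2A and then fell below VT with DM-αKG, from 16.9 ± 1.11 to 21.00 ± 1.11 and 11.8 ± 1.18 CPM. Gstm1 and Gstp1 have close paralogs, between which reads can be shared, so their values are less certain.

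**Figure D5:**
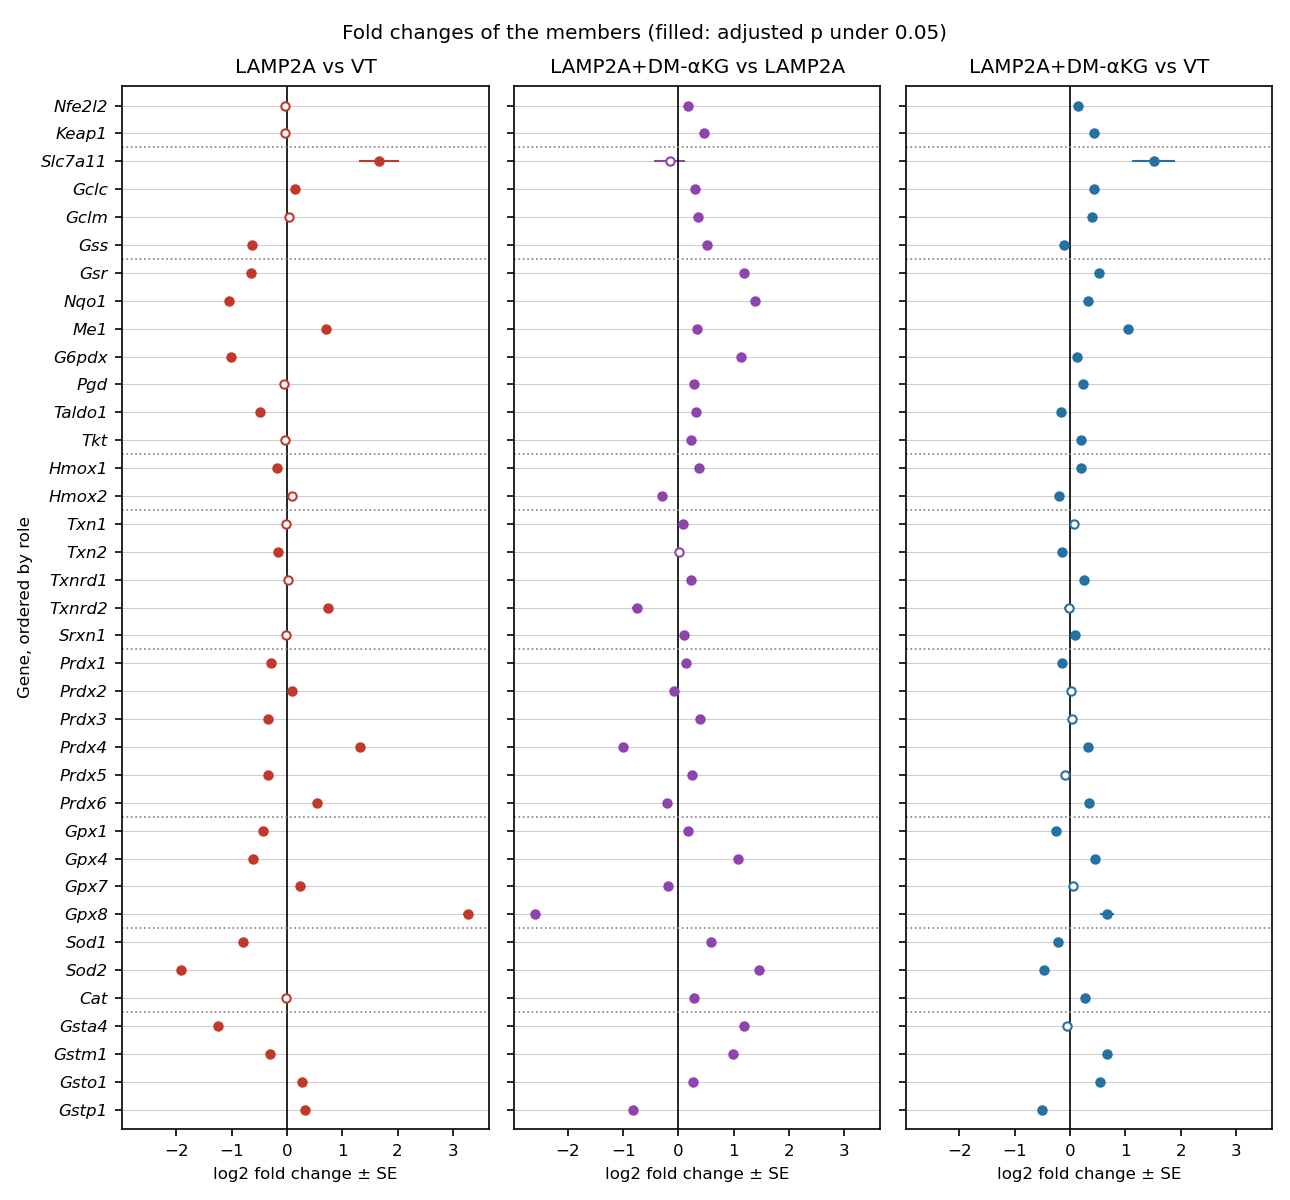
Log2 fold change ± SE of each member (rows, ordered by role) in the 3 comparisons; filled points passed (adjusted p under 0.05) and open points did not. Slc7a11 passed the filter only through the groups with LAMP2A. In LAMP2A against VT values run from -1.92 (Sod2) to 3.27 (Gpx8), in LAMP2A+DM-αKG against LAMP2A most points lie right of 0, and in LAMP2A+DM-αKG against VT nearly all lie within 1 of 0.

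Side by side, the calls sort the genes as follows; the first and the second comparison share the LAMP2A libraries, so a fall in one and a rise in the other are not separate evidence. Gsr, Nqo1, G6pdx, Hmox1, Gpx4 and Gstm1 fell with LAMP2A, rose with DM-αKG and were above VT after it. Gss, Taldo1, Prdx1, Gpx1, Sod1 and Sod2 fell, rose and were below VT, and Prdx3, Prdx5 and Gsta4 fell, rose and did not pass against VT. Nfe2l2, Keap1, Gclm, Pgd, Tkt, Txnrd1, Srxn1 and Cat did not pass with LAMP2A but were higher after DM-αKG than in both other groups. Gclc, Me1 and Gsto1 rose in both steps. Prdx4, Prdx6 and Gpx8 rose, fell and stayed above VT, Gstp1 rose and ended below VT, and Txnrd2, Prdx2 and Gpx7 rose, fell and did not pass against VT.

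Another 89 genes of the pathway, listed by function, were looked up in the same fit, and 83 of them were tested. With LAMP2A 27 rose (32.5%, against 43.0% of all genes) and 48 fell (57.8%, against 42.1%). With DM-αKG against LAMP2A 42 rose (50.6%, against 41.1%) and 22 fell (26.5%, against 42.1%). Against VT 28 were higher and 29 lower in LAMP2A+DM-αKG (33.7% and 34.9%), close to the 29.3% of all genes in each direction. The counts of the smaller lists that follow stand against the same shares of all genes. Their median log2 fold changes were -0.13, 0.13 and -0.00. Among 14 regulators around NRF2, 9 rose (43.0% of all genes) and 2 fell (42.1%) with LAMP2A, and with DM-αKG 4 rose (41.1%) and 7 fell (42.1%). Against VT 8 were higher (57.1%) and 3 lower (21.4%) in LAMP2A+DM-αKG, near the 56.8% and 24.3% of the members. Bach2, the repressor of antioxidant response elements known from lymphocytes, went from 3.97 ± 0.334 to 46.3 ± 1.82 and 1.995 ± 0.423 CPM (SD, n = 3), with log2 fold changes of 3.55 and -4.52. It reached the mean of 5 CPM asked of named genes only through the LAMP2A libraries, where it is high.

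Of 14 genes of glutathione turnover and precursors, 3 rose and 11 fell with LAMP2A (43.0% and 42.1% of all genes), and 10 rose and 3 fell with DM-αKG (41.1% and 42.1%). Cbs, which starts the route from homocysteine to cysteine, went from 45.6 ± 2.68 to 11.97 ± 0.894 and 26.4 ± 1.53 CPM, and Ggt1, which cleaves glutathione outside the cell, from 8.05 ± 0.183 to 1.77 ± 0.245 and 8.44 ± 0.823 CPM. Gpx3, the secreted glutathione peroxidase, was highest in LAMP2A, as Gpx8 was, going from 18.7 ± 1.15 to 177 ± 0.988 and 14.8 ± 0.353 CPM (log2 fold changes 3.24 and -3.57). Msrb3, a methionine sulfoxide reductase, was as well, going from 2.65 ± 0.297 to 45.4 ± 0.513 and 1.99 ± 0.259 CPM. Like Bach2, Msrb3 reached a mean of 5 CPM only through the LAMP2A libraries. In its list of 16, which also holds glutaredoxins and sestrins, 5 rose and 9 fell with LAMP2A (43.0% and 42.1% of all genes). With DM-αKG 6 rose and 5 fell, a share of 37.5% rising that is near the 41.1% of all genes.

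Of 18 tested genes for NADPH supply, detoxication and iron, 3 rose and 13 fell with LAMP2A (43.0% and 42.1% of all genes), and 13 rose and 2 fell with DM-αKG (41.1% and 42.1%). Cbr3, a carbonyl reductase known as an NRF2 target, had 34.2 ± 1.65 CPM in VT, against 3.29 ± 0.301 in LAMP2A and 58.9 ± 1.22 after DM-αKG (log2 fold changes -3.38 and 4.16). The biliverdin reductase gene Blvrb went from 33.1 ± 2.64 to 20.3 ± 0.508 and 58.3 ± 2.84 CPM, and Aifm2, which protects membranes by reducing ubiquinone, from 14.1 ± 0.574 to 5.99 ± 0.219 and 17.5 ± 0.666 CPM. These 3 genes thus had the order of Nqo1 and Gsr, with the lowest level in LAMP2A and the highest with DM-αKG.

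Of 7 genes that build selenoproteins, 1 rose and 6 fell with LAMP2A (43.0% and 42.1% of all genes), and 5 rose and 1 fell with DM-αKG (41.1% and 42.1%). Sephs2, which makes the selenium donor, fell from 202 ± 5.005 to 85.00 ± 0.553 CPM and reached 117 ± 2.14 CPM with DM-αKG. Among 14 tested glutathione transferases outside the members, 6 rose and 7 fell with LAMP2A, near the 43.0% and 42.1% of all genes, and 4 rose and 4 fell with DM-αKG (41.1% and 42.1%). Gstt2 stayed low after its fall, at 11.8 ± 0.606, 6.59 ± 0.186 and 6.99 ± 0.489 CPM.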

How the data were processed

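RNA-seq libraries of 9 samples, 3 per group, were analysed. The authors deposited raw read counts per gene. Per the submitters' processing notes, STAR 2.7.1, HTSeq 0.11.2 and DESeq2 were used with genome build mm10; which annotation and strand option the counting used is not given in the sources used here. The deposited DESeq2 comparison tables were not used here. Libraries held 23636074 to 32809875 counts, so counting error is small for most members. It is large for Slc7a11 and larger than for most for Gpx8, which had 64, 65 and 70 reads in the VT libraries.

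Counts were filtered with filterByExpr, which kept 14513 of 24421 genes, scaled with TMM and fitted over all 9 libraries with edgeR 4.0.16's quasi-likelihood test (R 4.3.3, limma 3.58.1). Each of the 3 contrasts was adjusted by Benjamini-Hochberg over all genes tested, with a threshold of 0.05, and a second rule asked for 1.5-fold as well. All adjusted p-values in the text are from this test unless another is named. The steps were tested on simulated data in which few genes changed. In the real data most genes passed in each comparison, so that test does not cover scaling when most genes move. CPM were divided by exon length (GENCODE M21, GRCm38) to compare genes. Alternatives were median-ratio factors, DESeq2 1.42.0, no filter, a filter at a mean of 5 CPM, only the 6 libraries compared, a replicate block, and each library left out.

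The members and gene lists were chosen with earlier results of these data known. Genes given in full were Nfe2l2, Keap1, Slc7a11, Gclc, Gclm, Nqo1, Hmox1, Txnrd1 and Srxn1 and, among members whose mean level reached 5 CPM, the 6, 6 and 4 with the highest absolute log2 fold change in LAMP2A against VT, LAMP2A+DM-αKG against LAMP2A and LAMP2A+DM-αKG against VT. Of the other pathway genes, the 6 with the highest absolute log2 fold change among those called at a mean of at least 5 CPM were named per comparison. The member Gpx8 and the other pathway genes Bach2 and Msrb3 reached that mean only through the LAMP2A libraries. The 3 libraries of a group are taken as replicates; nothing in the labels says that they came from separate cultures, and each p-value therefore reflects the spread of these libraries alone, possibly a technical one. All pairs of libraries within a group differed by more than counting noise (chi-square per degree of freedom 1.19 to 5.66), and none were merged.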

Additional observations from a re-analysis of the deposited data

How the results depend on the processing

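The counts of called members stayed within 1.5 times their value in all 15 alternatives, and no called member changed sign in any. Leaving out 1 library at a time, the members called numbered 26 to 28 for LAMP2A against VT, 33 to 35 for LAMP2A+DM-αKG against LAMP2A and 29 to 32 for LAMP2A+DM-αKG against VT; at 1.5-fold or more they numbered 13 to 13, 11 to 12 and 4 to 4. Among the other pathway genes 70 to 75, 62 to 67 and 51 to 57 were called. With a replicate block, 27, 35 and 30 members were called, the same counts as without it, and 74, 64 and 56 other pathway genes. No pairing by replicate number was seen. Deviations of same-numbered libraries correlated at -0.112 to 0.141 over 9 pairs, and those of other numbers at -0.148 to 0.165. With 3 libraries per group a weak shared effect could be missed.

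With the filter at a mean of 5 CPM, Gclm (log2 fold change 0.10, edgeR adjusted p = 0.00687) and Txnrd1 (0.07, edgeR adjusted p = 0.0229) were called higher with LAMP2A, so the statement that they did not pass depends on that filter. Without VT replicate 2, Txn1 (edgeR adjusted p = 9.6e-05) and Prdx2 (edgeR adjusted p = 0.0287) were called in LAMP2A+DM-αKG against VT. Txn1 was also called there with no filter (edgeR adjusted p = 0.0446) and with the filter at 5 CPM (edgeR adjusted p = 0.0386). Without VT replicate 3, Prdx5 was called too (edgeR adjusted p = 0.0154). Apart from the effect of the filter on scaling, the cause was not tested. Depth limits Slc7a11, with 3 to 25 reads per library.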
